A study of Mus musculus with 8 samples.

Results

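The genes described here encode the enzymes of fatty acid oxidation and the proteins that build peroxisomes, as read by ribosome profiling of mouse liver. They were chosen by gene symbol alone: acyl-CoA dehydrogenases, oxidases, synthetases, thioesterases and thiolases, the carnitine acyltransferases, the hydratases, isomerases and reductases of the pathway, the electron transfer flavoprotein and its oxidoreductase, and the numbered peroxins. Of 7500 genes in the table, 53 met this rule. A list of 80 such genes was drawn up by role, and 27 of them, for which the table gives no line, were not analysed here.

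Ribosome profiling sequences the short mRNA fragments that a ribosome shields from nuclease, so that footprints on a coding sequence measure how many ribosomes were translating it. Livers were those of male wild-type FVB/N mice that had received, from weaning at an age of 3 weeks and for 6 weeks, a torula yeast diet with no added selenium (0 Se) or the same diet with 0.1 ppm selenium as sodium selenite (0.1 Se). There were 2 mice and 4 libraries per diet, 2 libraries for each mouse. The table gives a single average level per gene, taken here to be over the 8 libraries of both diets. Its column names no sample, so this was not checked. The columns that compare the diets are the authors' own results and were not used. No difference between 0 Se and 0.1 Se is therefore reported, the values have no SD, and the depth of a library is unknown.

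Levels are given in CPM, footprint counts scaled to a common library total, or in CPM per kb, which is CPM divided by the counted coding length and allows genes of different length to be compared. Without a replicate error, genes that lie close together in level cannot be put in order.

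Liver burns fatty acids in both mitochondria and peroxisomes. A fatty acid is first joined to coenzyme A. Long chains then enter mitochondria as carnitine esters, and each turn of the spiral (dehydrogenation, hydration, a further dehydrogenation and thiolysis) releases acetyl-CoA. Peroxisomes shorten very long and branched chains with an oxidase in place of the first dehydrogenase, which produces hydrogen peroxide. Peroxins are the proteins that import enzymes into peroxisomes, place membrane proteins and divide the organelle.

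The labelled tissue was checked against marker genes. Of 8 hepatocyte markers, 7 had a line, from 194 CPM per kb for Serpina1a to 51734 for Alb. The next lowest after Serpina1a was Asgr1 at 812. The study kept only reads with a unique place, and how far related genes lower the level of a marker was not examined. Of 6 Kupffer cell marker genes, 5 had a line, the highest being Clec4f at 171 CPM per kb. The 4 endothelial markers reached at most 22.1 CPM per kb, the 4 stellate cell markers 13.6, and 3 of 4 cholangiocyte markers 2.84. None of 4 muscle and 3 adipocyte markers had a line. The hepatocyte marker without a line is abundant in liver, so a missing line does not show a low level. In whole tissue, a gene used by few cells and a gene used little by every cell cannot be told apart.

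The 53 genes lay mostly in the upper part of the table. Their median was 101 CPM per kb, against 11.2 for the 7447 other genes. Above the median of all genes lay 43 of the 53, and 22 lay in the top 10%. The lowest was Acad12 at 2.01 CPM per kb, and 17 members were among the 500 highest genes of the table. A log2 CPM under 3 was found for 6 members (11.3%) and for 33.4% of all genes. Together they held 1.81% of the summed CPM of the table, while making up 0.707% of its genes. Liver secretes much of what it translates, and Alb (albumin) alone held 10.7% of that sum. These are descriptions of average levels, with no test.

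**Figure D1:**
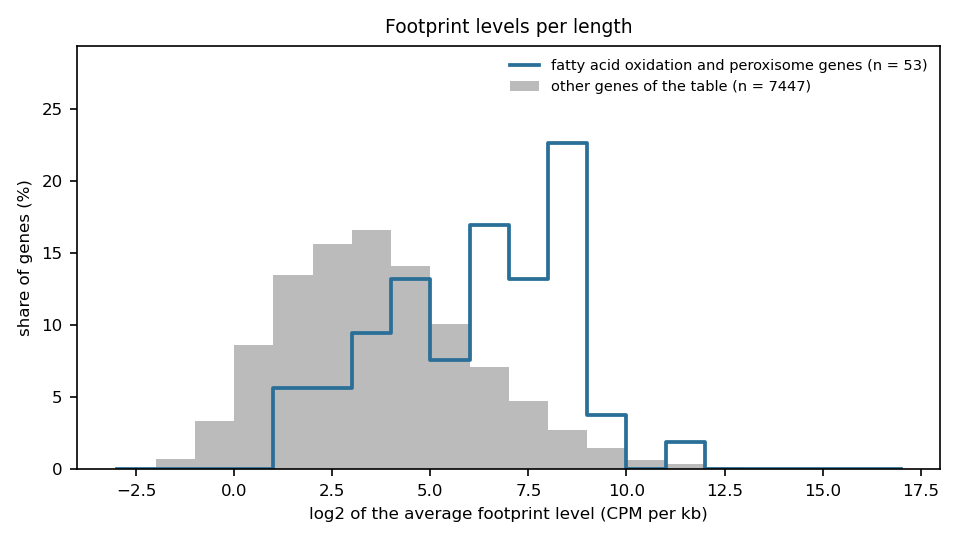
Share of genes (%) in each 1-unit bin of the log2 footprint level in CPM per kb, for the 53 fatty acid oxidation and peroxisome genes (line) and the 7447 other genes of the table (grey bars). The bin that holds most members, 8 to 9, contains 22.6% of them and 2.73% of the other genes.

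Outside peroxisomal beta-oxidation, the 11 peroxins took 3.92% of the members' summed CPM and the 10 thioesterases 1.73%. The 7 roles of activation, carnitine transfer, dehydrogenation, electron transfer, the later mitochondrial steps and the auxiliary enzymes took from 4.94% to 9.91% each.

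Levels within each role are shown next, beginning with the peroxisome. Acox2 (chromosome 14, 9058025 to 9091867, minus strand, 15 exons, mm9), an oxidase of branched chains and bile acid intermediates, was at 153 CPM per kb. Ehhadh (chromosome 16, 21761360 to 21787917), a bifunctional enzyme of peroxisomes for hydration and dehydrogenation, was at 236 CPM per kb. Which of the oxidases it follows was not examined. Acox3 and Acoxl had no line.

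The last step is thiolysis by 3-ketoacyl-CoA thiolase, encoded by the near-identical genes Acaa1a and Acaa1b on chromosome 9, 184201 bases apart. Acaa1b stood at 475 and Acaa1a at 160 CPM per kb, a ratio of 2.96. Both values are uncertain. Of the 30-base windows in the counted part of either gene, 85.1% matched the other with up to 2 mismatches and 51.4% matched it exactly, and the study kept only reads with a unique place. Divided by the unique windows alone, Acaa1b came to 3260 and Acaa1a to 1100 CPM per 1000 windows.

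Many peroxisomal enzymes end in a tripeptide that the receptor Pex5 binds, the peroxisomal targeting signal type 1, whose classical form is serine-lysine-leucine. In the reference coding sequences, 9 of the 53 members (17.0%) ended in serine, alanine or cysteine, then lysine, arginine or histidine, then leucine or methionine, compared with 47 of 7388 genes of the table (0.636%). These ends are shown because they mark which members match the motif. The symbols that chose the members name peroxisomal enzymes among others, so the higher share is not an independent result. The 47 genes include the 9 members. The last 30 coding bases, stop codon included, are from the GENCODE transcripts on mm9, with the 3 codons before the stop in capitals. They are given for 8 of the 9 genes, in order of level.
Ech1: acaaaaagcatcaccttcTCCAAGCTCtga
Crot: atacagctgatgaacaccGCTCATCTTtag
Decr2: gagtttgaatccttctctGCTAAGCTGtag
Ehhadh: ttggcaggaccccatagcAGCAAACTGtga
Acot4: acccacagcagagcctccTGTAGACTGtag
Acot8: aagcctcaggtgtcagagAGTAAGCTAtag
Crat: ctccagaaccaccccaggGCCAAGCTCtga
Acot3: aaaaagaagacaatcccaGCAAAACTGtga

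Ech1, Ehhadh and Acot8 encode serine, lysine and leucine, each with a different set of codons. Decr2, Crat and Acot3 encode alanine, lysine and leucine. Crot ends in alanine, histidine and leucine, and Acot4 in cysteine, arginine and leucine. Acox2 and Eci2, singled out after their sequences were read, encode proline, lysine and leucine and fall outside the motif.
Acox2: ctgatgcaaagctggaaaCCCAAGCTGtga
Eci2: agcttcgtctccagaaaaCCAAAGCTGtga

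The 8 genes shown ranged from Acot3 at 9.50 CPM per kb to Ech1 at 473. The median of all 9 that match the motif was 236 CPM per kb, against 93.3 for the 44 members that do not. Acox2 and Eci2 are among the 44, and whether their ends act as a signal was not tested. The thiolases use another signal near the protein's start, which was not searched.

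Fatty acids are activated by acyl-CoA synthetases. Acsl1 (chromosome 8, 47556395 to 47621405, mm9), the main long-chain synthetase of liver, was at 597 CPM per kb and 1218 CPM. Acsl3, Acsl4, Acsl5 and Acsl6 had no line. The medium-chain synthetases Acsm1 and Acsm5, whose genes lie 63233 bases apart on chromosome 7, were at 394 and 66.3 CPM per kb, a ratio of 5.94.

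Carnitine acyltransferases move acyl groups on and off carnitine. Cpt1a, the liver form of the outer-membrane enzyme that limits entry into mitochondria, was at 174 CPM per kb, and Cpt2, its partner in the inner membrane, at 122, a ratio of Cpt2 to Cpt1a of 0.702. The muscle and brain forms Cpt1b and Cpt1c had no line. Crot, the octanoyltransferase that exports shortened chains from peroxisomes, had the highest level of this role at 409 CPM per kb. Crat, which acts on acetyl groups, was the lowest at 9.93, so that Crot was 41.2 times as high. Both carry the signal shown above, and their levels were the furthest apart in the role.

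Acyl-CoA dehydrogenases begin each turn of the mitochondrial spiral, and each prefers a chain length. Acadm, for medium chains, was at 425 CPM per kb, followed by Acadvl for very long chains at 279 and Acads for short chains at 225. The ratio was 0.656 for Acadvl to Acadm and 1.89 for Acadm to Acads. Acadsb, which oxidizes a short branched chain from isoleucine, was at 101, and Acad9, known mainly for the assembly of respiratory complex I, at 41.1. Acad10 and Acad12, neighbours on chromosome 5 with 2088 bases between them, were the lowest at 5.65 and 2.01 CPM per kb. They share 41.4% and 81.7% of their windows, mainly with each other. Per 1000 unique windows they came to 9.71 and 11.1, too close to be put in order. The long-chain enzyme Acadl, Acad8 and Acad11 had no line.

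Electrons from these dehydrogenases pass to the electron transfer flavoprotein, a dimer of the products of Etfa and Etfb, and then to the oxidoreductase Etfdh in the inner membrane. Etfb stood at 630 CPM per kb, Etfa at 408 and Etfdh at 197. Etfa was thus at 0.648 of Etfb, although the dimer holds an equal number of each, and Etfa was 2.07 times and Etfb 3.20 times as high as Etfdh. No window of these genes matched another gene.

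The steps after dehydrogenation are carried out on long chains by the mitochondrial trifunctional protein, whose alpha and beta subunits Hadha and Hadhb encode in equal numbers. Hadha was at 333 and Hadhb at 281 CPM per kb, a ratio of 1.18, while their CPM values were 742 and 384. Echs1, the short-chain hydratase, was at 505. Hadh and the thiolase Acaa2 had no line. Hadha and Hadhb point away from each other on chromosome 5, from 30444841 to 30481702 on the minus strand and from 30481788 on the plus strand. The interval between them holds only 85 bases, and it is shown because the genes of both subunits share it. It lies at chr5:30481703-30481787 on mm9, plus strand, with GC boxes (GGGCGG on either strand) in capitals.
Hadha-Hadhb interval: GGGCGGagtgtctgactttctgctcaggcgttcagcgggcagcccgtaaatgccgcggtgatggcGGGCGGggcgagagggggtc

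The interval has a GC content of 69.4% and 2 GC boxes, a motif added after the sequence was read. At least 1 GC box is found in 35.7% of all RefSeq promoters of 300 bases and in 62.4% of those of genes in the table. The match is a description and not evidence of a bound factor.

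Auxiliary enzymes deal with double bonds. Ech1, a dienoyl-CoA isomerase, led the group with 473 CPM per kb. The dienoyl-CoA reductases of peroxisomes and mitochondria, Decr2 and Decr1, were at 336 and 301, a ratio of Decr1 to Decr2 of 0.897. Eci2, an enoyl-CoA isomerase, was at 207, and at 450 per 1000 unique windows, since 52.7% of its windows matched another gene, mainly Eci3. The hydratase-like genes Echdc2, Echdc1 and Echdc3 were at 62.2, 52.5 and 8.01. Echdc1 is known to remove a side product of fatty acid synthesis. Eci1 had no line.

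Thioesterases release the free acid from coenzyme A. Their median was 16.1 CPM per kb, and 6 of 10 lay above the median of the table, 11.3. Per 1000 unique windows the median was 27.3 CPM, beside 28.2 for the peroxins, and all 10 thioesterases exceeded 11.3, although the median of the table was not rescaled. Acot13, with the shortest coding sequence of the members (363 counted bases), was at 110 CPM per kb, and Acot12, a cytosolic enzyme that hydrolyses acetyl-CoA, at 67.8. Acot4, Acot8, Acot11 and Acot7 ranged from 22.5 down to 13.8, Acot3 was at 9.50, and Acot1, Acot2 and Acot9 from 4.75 down to 2.2. Acot1 to Acot4 lie in a row on chromosome 12 and resemble one another. Acot1 and Acot2 share 84.1% and 82.7% of their windows, and per 1000 unique windows they came to 30.5 and 24.1 CPM. Acot4 shares 32.4% of its windows, mainly with Acot3, and Acot3 shares 57.5%, mainly with Acot5. Acot4 and Acot3 came to 34.0 and 22.8. Acot9 shares 95.4% of its windows, mainly with Acot10, and came to 48.6, so that little translation and the loss of shared reads cannot be told apart for these genes. Acot8, with no shared window, was at 22.0.

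**Figure D2:**
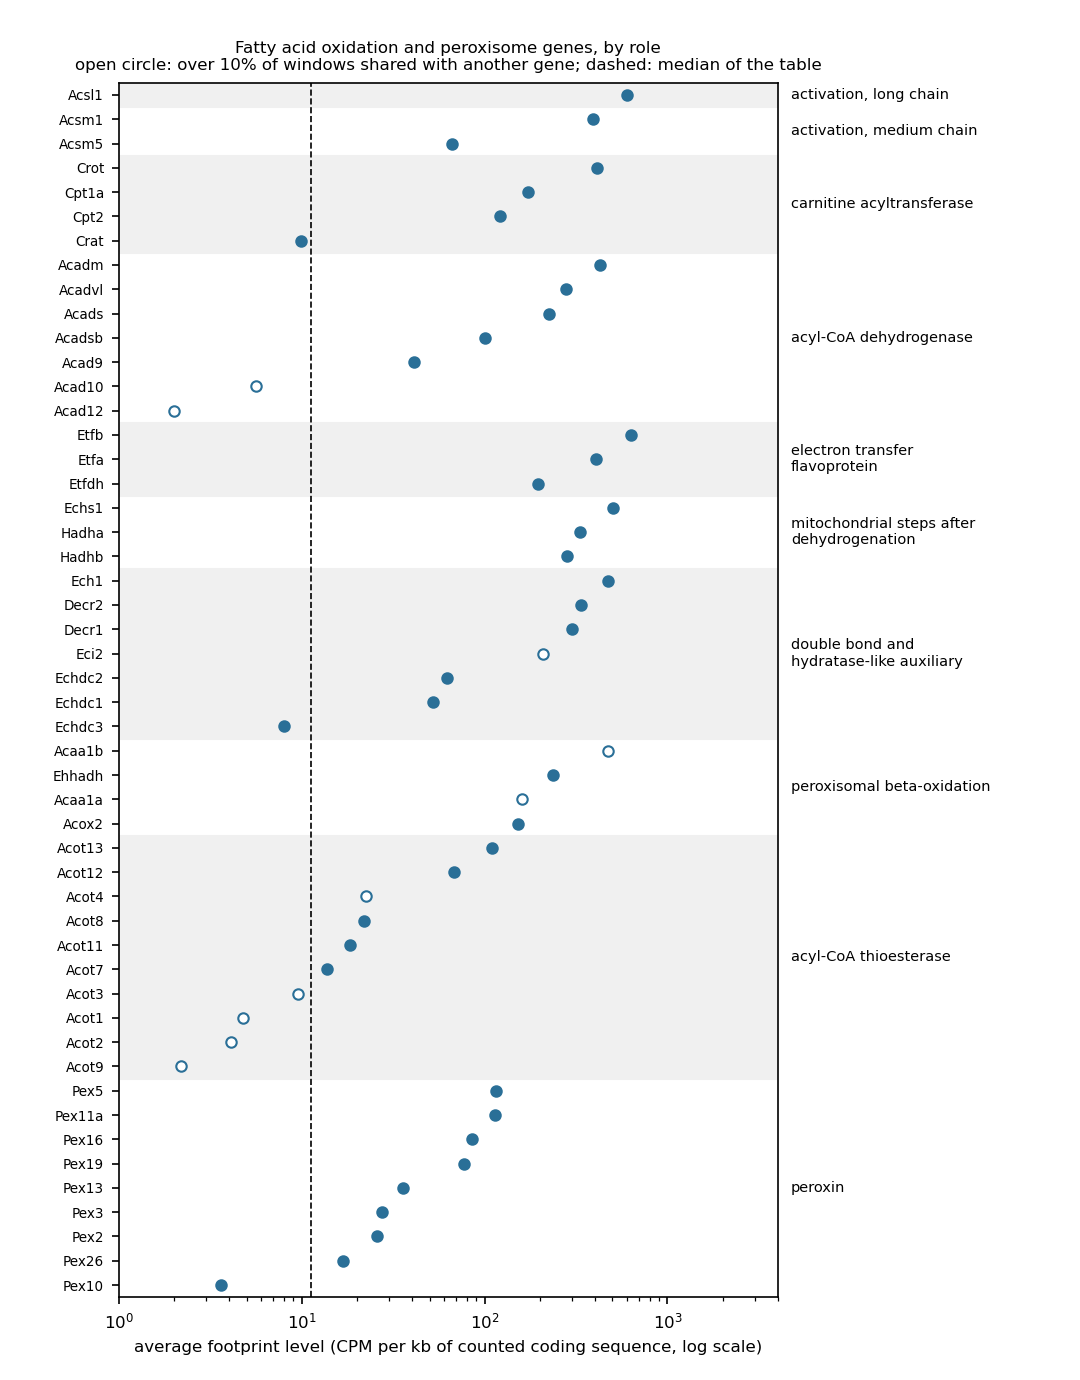
Average footprint level (CPM per kb of counted coding sequence, log axis) of 50 of the 53 genes, grouped by role and ordered within it. Open circles mark the 10 genes with over 10% of windows shared with another gene, and the dashed line is the median of the table, 11.3. The genes plotted for peroxisomal oxidation, electron transfer and the mitochondrial steps after dehydrogenation lie above it, and the 9 genes below it are thioesterases, dehydrogenases, Pex10, Echdc3 and Crat.

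**Figure D3:**
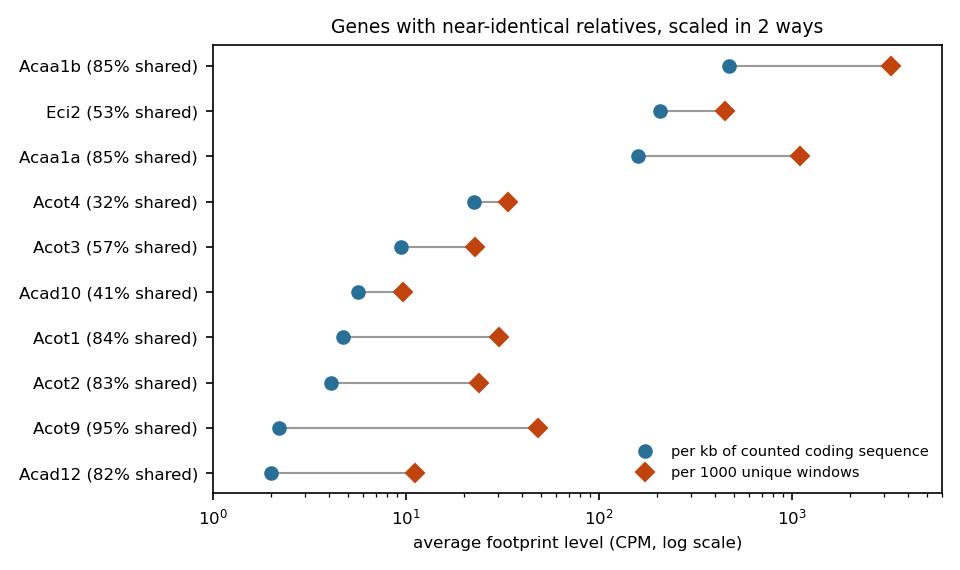
The 10 genes with over 10% of their 30-base windows shared, with the level per kb of counted coding sequence (circles) and per 1000 unique windows (diamonds) on a log axis in CPM. The largest move is that of Acot9, 22.1 times, and Acaa1b reaches 3260.

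Peroxins had a median of 27.5 CPM per kb, and 9 of 11 were above the median of the table. Pex5, the receptor for the signal shown above, was at 115, too close to Pex11a at 114 to be put in order. Pex13, the membrane protein at which Pex5 docks, was at 35.7, a ratio of Pex13 to Pex5 of 0.310. Pex14, the other docking protein, had no line. Among the 3 proteins that place peroxisomal membrane proteins, Pex16 was at 85.7, the chaperone Pex19 at 76.8 and its anchor Pex3 at 27.5, and Pex19 was 2.79 times as high as Pex3.

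Receptors are recycled by a ubiquitin ligase that contains Pex2 and Pex10 and by an ATPase that contains Pex6 and that Pex26 holds at the membrane. Pex2 was at 25.8 and Pex10 at 3.61 CPM per kb, a ratio of 7.14. Pex6 had no line, and Pex26 was at 16.7. Pex11a, which elongates peroxisomes before they divide, was at 114. Pex7, the receptor for the second signal, had no line. No peroxin shared a window with another gene.

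Genes outside the rule give the scale. Ppara, the fatty acid sensor that switches on many of these genes, was at 138 CPM per kb, and its partner Rxra at 88.8. Of the peroxisomal enzymes listed, 14 of 19 had a line, with a median of 289 and with Scp2 at 5228, Cat (catalase, which removes the peroxide made by the oxidases) at 3297 and Phyh at 2299. Of the ketone body enzymes, Acat1 was at 449 and Bdh1 at 375. Slc25a20, the carrier that brings acylcarnitine into mitochondria, was at 166, beside 174 for Cpt1a. The fatty acid binding protein Fabp1 was at 27100, rank 5 of the table, and the very long chain transporter Slc27a2 at 743. Of the transporters of the peroxisomal membrane, Abcd3 was at 377, while Abcd2 was at 6.19 and Abcd4 at 6.95.

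Promoters were searched for DR1, the motif bound by Ppara with Rxra (AGGTCA, any base, and AGGTCA again), on both strands of RefSeq promoters of 300 bases (250 before and 50 after the start, GRCm38.p6). Of the 53 members, 44 had a promoter in that table. Shares are given over genes with a promoter, first for all genes and then for genes of the table, from which the members come. None of the 44 held DR1 exactly, as against 0.0481% and 0%, and 1 (2.27%) held it with up to 1 mismatch, as against 0.644% and 0.619%. That gene was Acot12, and the site is shown with the motif in capitals, on the strand of the gene, where it runs in the opposite direction. It lies at chr13:91741411-91741423 on GRCm38.p6 (capitals only).
Acot12: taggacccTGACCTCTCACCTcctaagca

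With up to 2 mismatches, 5 members held the motif (Acot12, Acot4, Acox2, Echs1 and Etfa), 11.4% of 44, as against 4.40% and 4.05%. The shorter half-site AGGTCA, which is also part of DR1, was found in 9 members (20.5%), as against 18.1% and 15.7%. CCAAT was found in 23 members (52.3%), as against 41.1% and 43.6%. The palindromic motif of NRF1 was in 3 (Acad10, Acad12 and Etfdh), or 6.82%, as against 1.07% and 2.60%. These windows are short, and the absence of these letters says nothing about Ppara.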

How the data were processed

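Ribosome footprints of mouse liver were measured in 8 libraries of 4 mice, grouped by sample title. The authors trimmed adapters with the FastX toolkit, removed ribosomal RNA reads with Bowtie, and aligned the rest with Bowtie to coding sequences of RefSeq (mm9), keeping the longest isoform, unique reads and up to 2 mismatches, and leaving out 15 codons at the start and 3 at the end. The authors passed to edgeR those genes that exceeded 1 CPM in 3 samples or more. Tool versions are not stated in the paper or labels. The log2 CPM deposited by the authors was taken to be an average over all libraries, and the authors' tool adds a small count that raises low values. The log2 fold change, fold change, p-value and adjusted p-value columns deposited beside it are the authors' own comparison of the diets and were not used, so the diet comparison was not run.

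CPM was taken as 2 to the power of the log2 CPM and divided by the deposited length. That length equalled the reference coding length less 60 bases (20 codons) for 97.9% of genes with a reference sequence and for all 53 members, so it already leaves out the uncounted ends, the stop codon included. The whole coding length was tried in its place. Windows of 30 bases were aligned with bwa 0.7.19 (up to 2 mismatches) to 1 GENCODE vM1 coding sequence per gene on NCBIM37, the assembly of mm9. Whether the study's RefSeq set held each relative was not tested. Targeting signals were read from the same coding sequences instead of RefSeq proteins, and 152 symbols were matched through a RefSeq synonym. Scripts used Python 3.11.15 and pandas 2.3.3. The motif search and the level per kb were tested on made-up input, while the window alignment and the reading of targeting signals were not. Named genes followed a rule: all members of a role of 12 or fewer, except that some genes are not reported here. The members and lists were chosen with earlier results of these data known.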

Additional observations from a re-analysis of the deposited data

How the results depend on the processing

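All values rest on 1 average per gene, so leaving out a mouse or a library was not possible. No paired analysis was possible because no mouse number occurs on both diets and only 1 average per gene is given. A value is called moved below when it changed by over 0.5%, as no replicate error exists. The median level of the members, 101 CPM per kb, was 94.7 with the whole coding length, 115 over the 47 members with a log2 CPM of at least 3, 114 without the 10 members with over 10% of windows shared, and 103 per 1000 unique windows, a setting chosen after seeing the data. Their share of the summed CPM, 1.81%, was 2.51% without the 10 genes of highest CPM and 1.225% as a sum of CPM per kb. The order within roles was the same for all 53 with the whole coding length and kept its place for 35 of 53 per 1000 unique windows. With serine-lysine-leucine alone, 4 members carried the targeting signal in place of 9, and 0.135% of genes in place of 0.636%. Restricted to a log2 CPM of 3 or more, the share of genes was 0.709%. DR1 was in 0 of 44 members exactly, in 1 with up to 1 mismatch and in 5 with up to 2. Counted by promoter instead of by gene, the shares were 0%, 1.92% and 9.62% for the members. For all promoters they were 0.0396%, 0.554% and 3.86%. Among promoters of genes in the table, the exact motif was in 0%. Low levels are the least certain, since the depth behind them is unknown.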

Other observations

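The 53 genes lay on 18 chromosomes, with 7 each on chromosomes 5 and 7 and 6 on chromosome 4. Genes within 200 kb of each other were found for 7 neighbouring pairs, of which Hadha and Hadhb were the closest. The median GC content at the last base of codons was 60.7% for the members and 60.1% for all genes, and ranged among members from 33.3% for Etfa to 75.7% for Pex26. The other 38 genes of the table that end in the targeting signal were not examined.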
